A study of Mus musculus with 8 samples.

Results

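The genes described here are 8 receptors and membrane-bound regulators of complement, chosen by name and matched by symbol to the 41388 gene identifiers counted in each library: C3ar1, C5ar1, C5ar2, Vsig4, Cr1l, Cd55, Cd46 and Cd59a. All 8 were found, and 6 of them were among the 12002 genes with enough counts to be tested; Vsig4 and Cd59a were too low. The RNA came from microglia of adult C57BL/6 mice, sorted with CD11b, CD45 and CD11c, and the study compared 8 libraries in 3 groups. NMO CD11c+ cells (2 libraries) and NMO CD11c- cells (3 libraries) came from mice with neuromyelitis optica (NMO), a neuroinflammatory disease. Control cells (3 libraries) came from unmanipulated mice; the titles call them total microglia, while another label gives them as CD11C negative. The labels do not say how NMO was induced or whether the libraries came from separate mice, so p-values measure the spread between these libraries, which may be technical. No allele, transgene or further agent is named for any group.

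Complement is a cascade of plasma and locally made proteins that tags surfaces for uptake and can pierce membranes. Cleavage of C3 and C5 releases the anaphylatoxins C3a and C5a, which act on myeloid cells through G protein-coupled receptors, while C3b and C4b stay on the surface until regulators on host cells remove them or block the enzymes built on them. In human neuromyelitis optica, antibodies to the astrocyte water channel aquaporin-4 can activate complement, and microglia are known to express C1q and the anaphylatoxin receptors.

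The NMO CD11c+ libraries had 4943207 to 5914412 counts, the NMO CD11c- libraries 6437516 to 6819662 and the control libraries 7500815 to 9246061, so low genes are least precise in the NMO CD11c+ group. The labels give no batch, but the library numbers in the titles are 7 to 12 for the NMO libraries and 21 to 23 for the controls, so handling and disease cannot be told apart. Itgax, which encodes the CD11c used in the sort, had 188 and 181 CPM (counts scaled to a common library size) in NMO CD11c+ libraries, against 35.5, 41.3 and 40.0 CPM in NMO CD11c- and 30.6, 32.1 and 31.0 CPM in control libraries. The 14 homeostatic microglia markers summed to 40228.5 to 41939.1 CPM in NMO CD11c+, 41202.8 to 51190.2 CPM in NMO CD11c- and 50799.3 to 55476.2 CPM in control libraries. Markers of neutrophils stood apart: 14 of them, leaving out Csf3r, summed to 17.6 and 22.2 CPM in NMO CD11c+, 2231.0 to 11629.0 CPM in NMO CD11c- and 925.0 to 1914.4 CPM in control libraries. Csf3r, a receptor gene on the same list, was called by edgeR's test in no comparison and by DESeq2 as higher in NMO CD11c+ over control cells, at 1356.5 ± 121 CPM (SD, n = 2), 1218.1 ± 39.4 CPM (n = 3) and 1043.0 ± 15.9 CPM (n = 3) in NMO CD11c+, NMO CD11c- and control cells, and with it the sums were 1288.5 to 1464.3, 3494.5 to 12822.8 and 1975.2 to 2939.2 CPM. Across genes, the deviation of NMO CD11c+ replicate 1 from the mean of the 8 libraries also had a Spearman correlation of 0.592 with GC content, against -0.299 to -0.0378 for the remaining libraries.

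Per kilobase of exon, C3ar1 was the most abundant of the 8 genes in these sorted microglia, followed by C5ar1, C5ar2 and Cr1l, and Vsig4 had 1 count in all. No member passed the test in any of the 3 comparisons. The count was 0 of 6 for NMO CD11c+ over NMO CD11c- cells, where 0.283% of all tested genes were called (0.100% higher and 0.183% lower), 0 of 6 for NMO CD11c- over control cells, where 3.72% were called (3.0% higher and 0.717% lower), and 0 of 6 for NMO CD11c+ over control cells, where 10.2% were called (6.85% higher and 3.36% lower). These calls rest on edgeR's quasi-likelihood test, with the Benjamini-Hochberg adjusted p over all tested genes below 0.05. At an unadjusted p under 0.05 the members numbered 1 (Cd55), 1 (C3ar1) and 3 (C3ar1, Cr1l and Cd55), against 15.4%, 18.8% and 28.8% of all tested genes. DESeq2 called 0, 1 and 1 member in the same order, the call being C3ar1 both times, against 2.23%, 5.80% and 13.3% of tested genes. The median log2 fold change over the 6 tested genes was -0.20, 0.14 and -0.23, against 0.01, -0.004 and 0.006 over all genes tested. The first and last of these medians include the fitted Cd55 values of -2.97 and -2.65. Cd55 had 2 counts in NMO CD11c+ libraries and passed the low-count filter through the other groups only. Its unadjusted p in those comparisons therefore cannot be set directly against the shares of all tested genes.

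**Figure D1:**
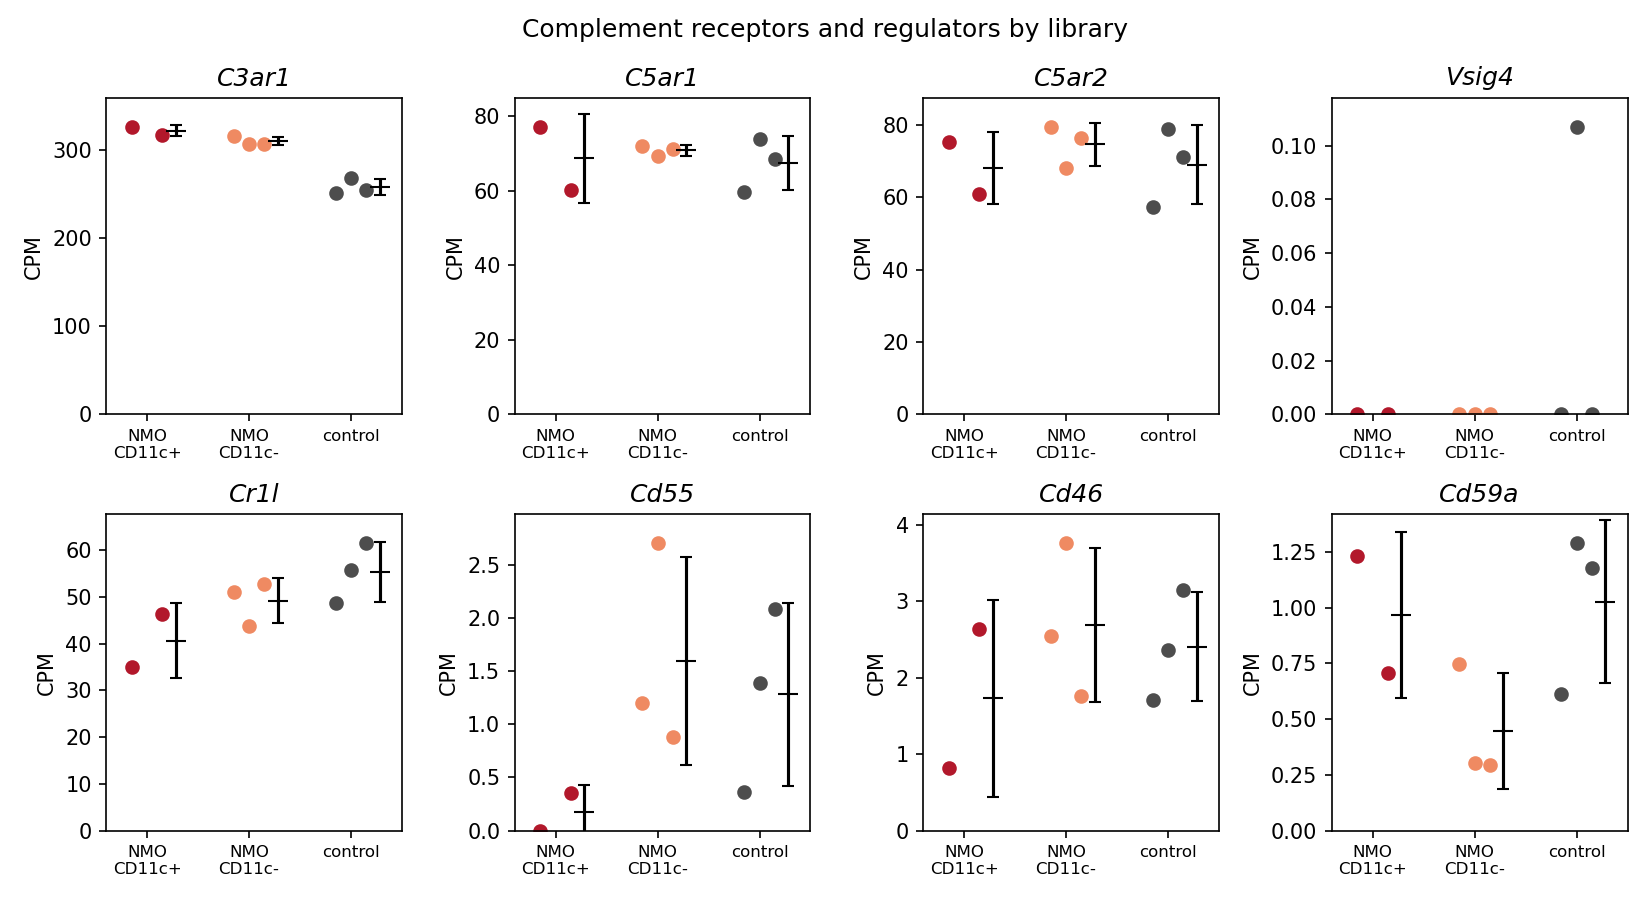
CPM (vertical axes, from 0, a scale of its own for each gene) of the 8 genes in each library, with points for libraries and a black bar and whiskers for the mean and SD of each group (n = 2 for NMO CD11c+, 3 for NMO CD11c- and 3 for control; not drawn for Vsig4, which had 1 count in all). C3ar1 lay at 307 CPM or more in the 5 NMO libraries and at 268 CPM or less in the 3 control libraries, while the C5ar1 and C5ar2 points of the 3 groups overlap.

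The promoters of the 3 anaphylatoxin receptors are shown because they are the members with the most RNA per length, and because NMO and control libraries did not overlap for C3ar1 and did for the neighbouring pair C5ar1 and C5ar2. Each is the RefSeq window of 300 bases on GRCm38.p6, 250 before and 50 after the annotated start, printed 5′ to 3′ on the gene's own strand. Capitals mark the AP-1 motif TGACTCA, and positions count the start base as 0, with upstream bases negative. C3ar1 is at chr6:122856108-122856407, C5ar1 at chr7:16259289-16259588 and C5ar2 at chr7:16244105-16244404, all on the minus strand. The C5ar1 window lies mostly inside the gene span given below, which ends at 16259540, so its RefSeq start is inside that span. C5ar2 had 2 entries in the RefSeq table, and a single window is printed.
C3ar1: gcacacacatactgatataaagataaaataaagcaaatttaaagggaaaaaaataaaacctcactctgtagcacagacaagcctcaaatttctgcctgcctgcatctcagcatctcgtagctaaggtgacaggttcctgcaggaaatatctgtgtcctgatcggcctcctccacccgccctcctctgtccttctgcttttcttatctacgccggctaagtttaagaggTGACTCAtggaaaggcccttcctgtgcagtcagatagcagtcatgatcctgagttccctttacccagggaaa
C5ar1: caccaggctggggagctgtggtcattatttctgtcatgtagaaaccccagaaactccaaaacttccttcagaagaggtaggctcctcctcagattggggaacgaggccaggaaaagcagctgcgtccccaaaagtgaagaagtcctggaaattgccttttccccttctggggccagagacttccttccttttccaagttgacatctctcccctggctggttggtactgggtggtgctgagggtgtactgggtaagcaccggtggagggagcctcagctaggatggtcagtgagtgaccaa
C5ar2: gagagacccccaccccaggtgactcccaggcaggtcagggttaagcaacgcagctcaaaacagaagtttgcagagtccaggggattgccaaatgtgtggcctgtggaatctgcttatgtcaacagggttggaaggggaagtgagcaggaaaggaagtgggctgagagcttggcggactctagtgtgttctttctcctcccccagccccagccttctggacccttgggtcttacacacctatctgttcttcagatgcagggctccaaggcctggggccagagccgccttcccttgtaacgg

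All 8 members had a promoter in the RefSeq table, and 3 motifs, picked with these sequences in view, were searched on both strands; positions are those of a match's first base in the window. The C3ar1 window held TGACTCA, the AP-1 motif, once, starting at position -22; 5.2% of the 32851 promoters in the table hold it. The PU box GAGGAA, bound by the myeloid factor PU.1, lies in 28.3% of promoters and was found in those of Vsig4 (positions -155 and -53) and Cd59a (position -62). The interferon-stimulated response element, searched as GAAA, any 2 bases and GAAA again, lies in 3.44% of promoters and was found in those of Cd59a (position -187) and Cd46 (position 2, minus strand). The windows of C5ar1, C5ar2, Cr1l and Cd55 held none of the 3 motifs. For C5ar1 and C5ar2 this covers the printed windows only. A match describes the sequence and shows no binding.

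C3ar1 (ENSMUSG00000040552, chr6:122847138-122856161 on GRCm38, minus strand) encodes the receptor for C3a. Its level was 326 and 317 CPM in NMO CD11c+ libraries, 315, 307 and 307 CPM in NMO CD11c- libraries, and 251, 268 and 254 CPM in control libraries. Every NMO library was above every control library, an ordering that 11.5% of all tested genes share. The means were 322 ± 6.56 CPM (SD, n = 2) in NMO CD11c+, 310.0 ± 4.23 CPM (n = 3) in NMO CD11c- and 258 ± 8.90 CPM (n = 3) in control cells. Against control, the level was 1.25 times as high in NMO CD11c+ cells (log2 difference 0.32, SE 0.100, 95% interval 0.10 to 0.54, adjusted p = 0.0691) and 1.20 times in NMO CD11c- cells (0.27, SE 0.0902, 0.06 to 0.47, adjusted p = 0.142). Both miss the threshold. NMO CD11c+ and NMO CD11c- cells differed by 0.05 on the log2 scale (SE 0.101, interval -0.17 to 0.28, adjusted p = 0.805), an interval that reaches no further than a factor of 1.21 upward and 0.889 downward.

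Whether C3ar1 is called against control turned on the method and on single libraries, while its direction did not. Over 16 alternative analyses, of which summing near copies with 0 counts could change nothing, the log2 difference lay between 0.28 and 0.56 for NMO CD11c+ over control cells and between 0.25 and 0.30 for NMO CD11c- over control cells, and was above 0 in each. For NMO CD11c+ cells 3 of the 16 gave a call: DESeq2 (adjusted p = 0.0131), a correction for GC content and length (0.56, adjusted p = 0.00944), and the fit without NMO CD11c+ replicate 2 (adjusted p = 0.0253). For NMO CD11c- cells 4 did: DESeq2 (adjusted p = 0.041), a fit of the compared groups alone (adjusted p = 0.0391), and the fits without NMO CD11c+ replicate 1 (adjusted p = 0.0448) or replicate 2 (adjusted p = 0.0447), libraries outside that comparison. Set against the genome, the C3ar1 difference was ordinary in size: 56.4% of tested genes had a smaller absolute log2 fold change between NMO CD11c+ and control cells, and 66.6% between NMO CD11c- and control cells. In bulk samples such as these, fewer cells of a type and less RNA per cell cannot be told apart.

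**Figure D2:**
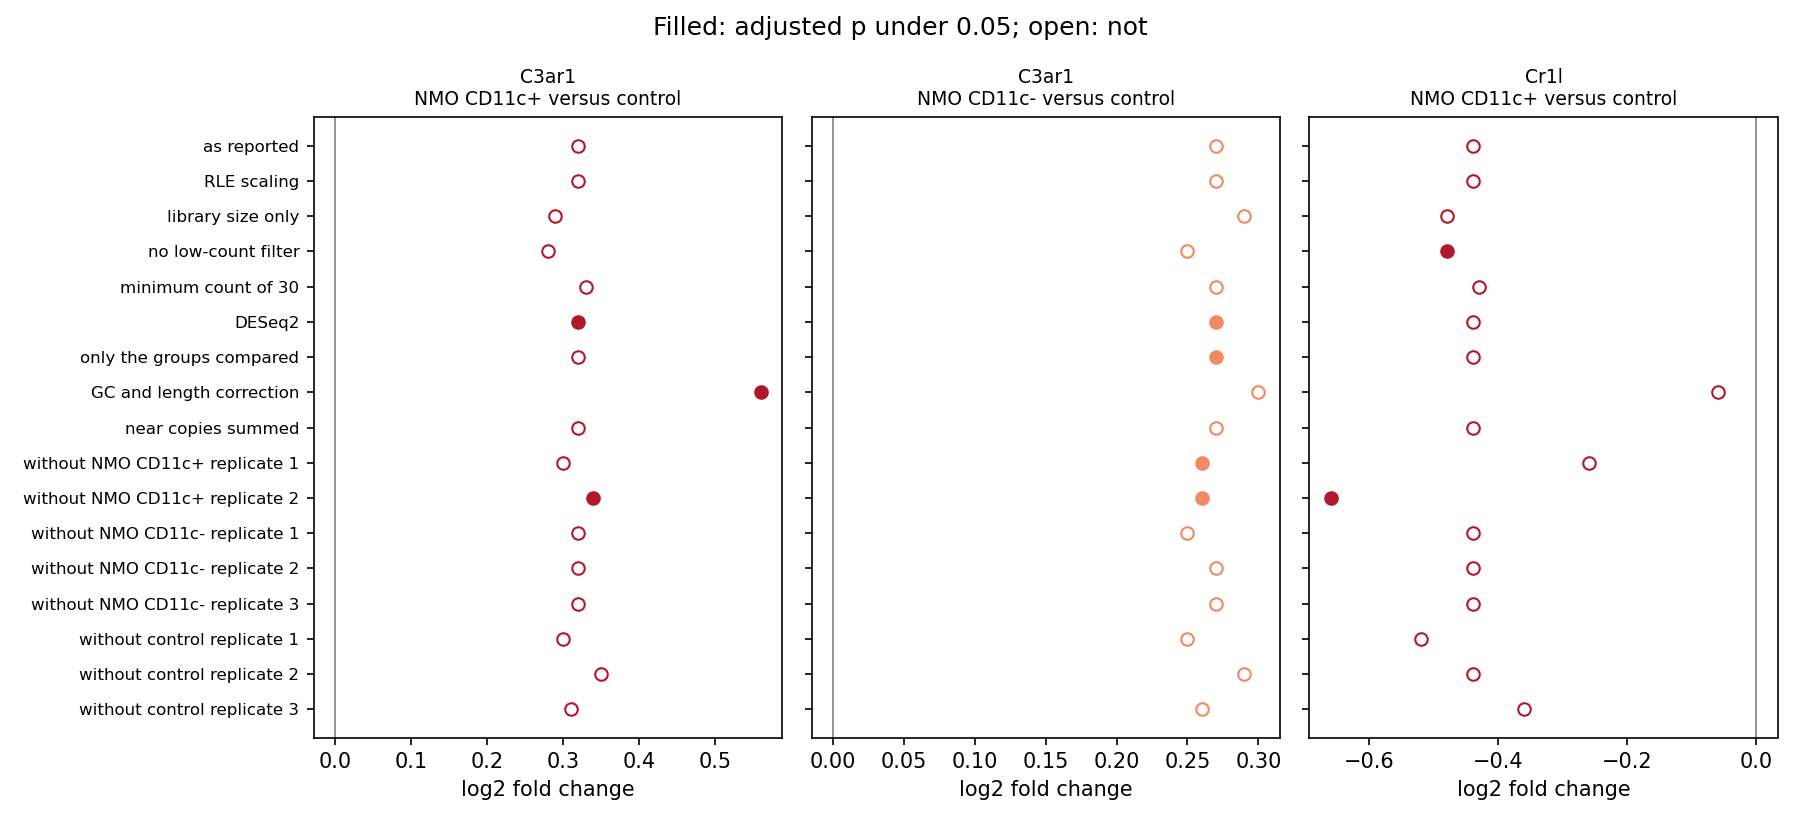
Log2 fold change (horizontal axes, each with its own range) of C3ar1 in NMO CD11c+ over control, C3ar1 in NMO CD11c- over control, and Cr1l in NMO CD11c+ over control, under the analysis reported and 16 alternatives (rows), where summing near copies could change nothing. Filled points had an adjusted p under 0.05 and open points did not. C3ar1 stays to the right of 0 throughout with 3 and 4 filled points, and Cr1l stays to the left with 2, its GC- and length-corrected value lying nearest to 0 at -0.06.

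C5ar1 (ENSMUSG00000049130, chr7:16246743-16259540, minus strand) encodes the main signalling receptor for C5a. It stood at 77.2 and 60.3 CPM in NMO CD11c+ libraries, 72.0, 69.3 and 71.3 CPM in NMO CD11c- libraries and 59.7, 74.0 and 68.5 CPM in control libraries. The groups overlapped fully: the highest and next-to-lowest of the 8 values were the 2 NMO CD11c+ libraries. Their means were 68.7 ± 12.0 CPM (SD, n = 2) in NMO CD11c+, 70.8 ± 1.41 CPM (n = 3) in NMO CD11c- and 67.4 ± 7.24 CPM (n = 3) in control cells. The log2 difference was -0.05 (interval -0.34 to 0.25, adjusted p = 0.879) for NMO CD11c+ over NMO CD11c- cells. It was 0.07 (interval -0.19 to 0.33, adjusted p = 0.798) for NMO CD11c- over control cells and 0.03 (interval -0.27 to 0.32, adjusted p = 0.918) for NMO CD11c+ over control cells. Whether C5ar1 and C3ar1 differed from each other in their change was not tested.

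C5ar2 (ENSMUSG00000074361, chr7:16234585-16244154, minus strand) encodes a second C5a receptor that does not couple to G proteins in the usual way. Its values were 75.2 and 61.0 CPM in NMO CD11c+ libraries, 79.5, 68.1 and 76.3 CPM in NMO CD11c- libraries, and 57.2, 78.8 and 71.1 CPM in control libraries. As with C5ar1, the groups overlapped. The means were 68.1 ± 10.1 CPM (SD, n = 2), 74.6 ± 5.88 CPM (n = 3) and 69.1 ± 11.0 CPM (n = 3) in NMO CD11c+, NMO CD11c- and control cells. Log2 differences were -0.13 (interval -0.48 to 0.21, adjusted p = 0.671) for NMO CD11c+ over NMO CD11c- cells, 0.11 (interval -0.19 to 0.41, adjusted p = 0.721) for NMO CD11c- over control cells and -0.02 (interval -0.36 to 0.32, adjusted p = 0.932) for NMO CD11c+ over control cells.

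The C5a receptor genes sit side by side on the minus strand of chromosome 7, 2588 bases apart with 0 annotated genes between them, and they tracked each other from library to library. The ratio of C5ar1 to C5ar2 counts stayed between 0.906 and 1.04 in the 8 libraries, and the Pearson correlation of their log2 CPM was 0.922 (n = 8 libraries, which share depth and scaling between the genes; given as a description). Both were low in NMO CD11c+ replicate 2 and control replicate 1. Divided by exon length, levels were higher for C5ar1, by 1.26 to 1.44 times. An annotated small nuclear RNA, Gm26473, lies within C5ar2.

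Per kilobase of exon, C3ar1 averaged 74.7, 71.9 and 59.8 CPM per kb in NMO CD11c+, NMO CD11c- and control cells, with only 3.72% to 5.04% of tested genes above it in any library. C5ar1 averaged 26.7, 27.6 and 26.2 CPM per kb in the same groups, and C5ar2 19.1, 20.9 and 19.4 CPM per kb. The order C3ar1, C5ar1, C5ar2 held in each of the 8 libraries, with a C3ar1 level 2.16 to 3.14 times that of C5ar1.

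Vsig4 (ENSMUSG00000044206, chrX:96247203-96293438, minus strand) encodes CRIg, a macrophage receptor that binds C3b and iC3b and takes up tagged particles, known from liver Kupffer cells. It had 0 counts in both NMO CD11c+ libraries, 0 in the 3 NMO CD11c- libraries and 0, 1 and 0 in the control libraries. A count of 0 over a group allows a level of up to 0.284 CPM in NMO CD11c+ and 0.149 CPM in NMO CD11c- cells, taking 3 counts as the floor, and covers counting error only. No difference was detectable at this depth. Border-associated macrophage markers, leaving out Stab1, summed to 117 and 214 CPM in NMO CD11c+, 164 to 209 CPM in NMO CD11c- and 58.1 to 138 CPM in control libraries. With Stab1, the most abundant of the list, the sums were 1326.7 to 2099.8, 1567.1 to 1688.3 and 1570.8 to 1616.6 CPM in the same order. Vsig4 had 0 counts in NMO CD11c+ replicate 1, where both sums were highest.

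Among the membrane regulators, Cr1l was by far the most abundant. Cr1l (ENSMUSG00000016481, chr1:195097382-195131586, minus strand) encodes Crry, a rodent protein that limits C3 convertases on host cells and serves as a cofactor for cleavage of C3b and C4b. It had 34.9 and 46.3 CPM in NMO CD11c+ libraries, 51.0, 43.8 and 52.8 CPM in NMO CD11c- libraries and 48.7, 55.7 and 61.5 CPM in control libraries. Both NMO CD11c+ values were below all 3 control values, as for 21.5% of tested genes, and the NMO CD11c- libraries overlapped with both other groups. The means were 40.6 ± 8.06 CPM (SD, n = 2), 49.2 ± 4.74 CPM (n = 3) and 55.3 ± 6.41 CPM (n = 3) in NMO CD11c+, NMO CD11c- and control cells.

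Fitted to all libraries, Cr1l in NMO CD11c+ cells was 0.737 times control (log2 difference -0.44, SE 0.156, 95% interval -0.79 to -0.09, adjusted p = 0.0985). The difference was -0.27 (interval -0.62 to 0.08, adjusted p = 0.408) for NMO CD11c+ over NMO CD11c- cells and -0.17 (interval -0.47 to 0.13, adjusted p = 0.559) for NMO CD11c- over control cells. The first of these was called without NMO CD11c+ replicate 2 (-0.66, adjusted p = 0.0128) and with no filter on low counts (-0.48, adjusted p = 0.0282), and was -0.26 (adjusted p = 0.354) without NMO CD11c+ replicate 1. With correction for GC content and length it was -0.06 (adjusted p = 0.801), and that for NMO CD11c+ over NMO CD11c- cells became 0.08. At 37.8%, the longest transcript of Cr1l has the lowest GC content among those of the 8 genes. The lower of the Cr1l values in NMO CD11c+ came from replicate 1, the library whose counts followed GC content. The correction took the GC content and length of each gene's longest transcript together, so their separate parts were not tested. Merged over transcripts, Cr1l also has the longest exon sequence of the 8 genes, at 10349 bases, but that length did not enter the correction.

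**Figure D3:**
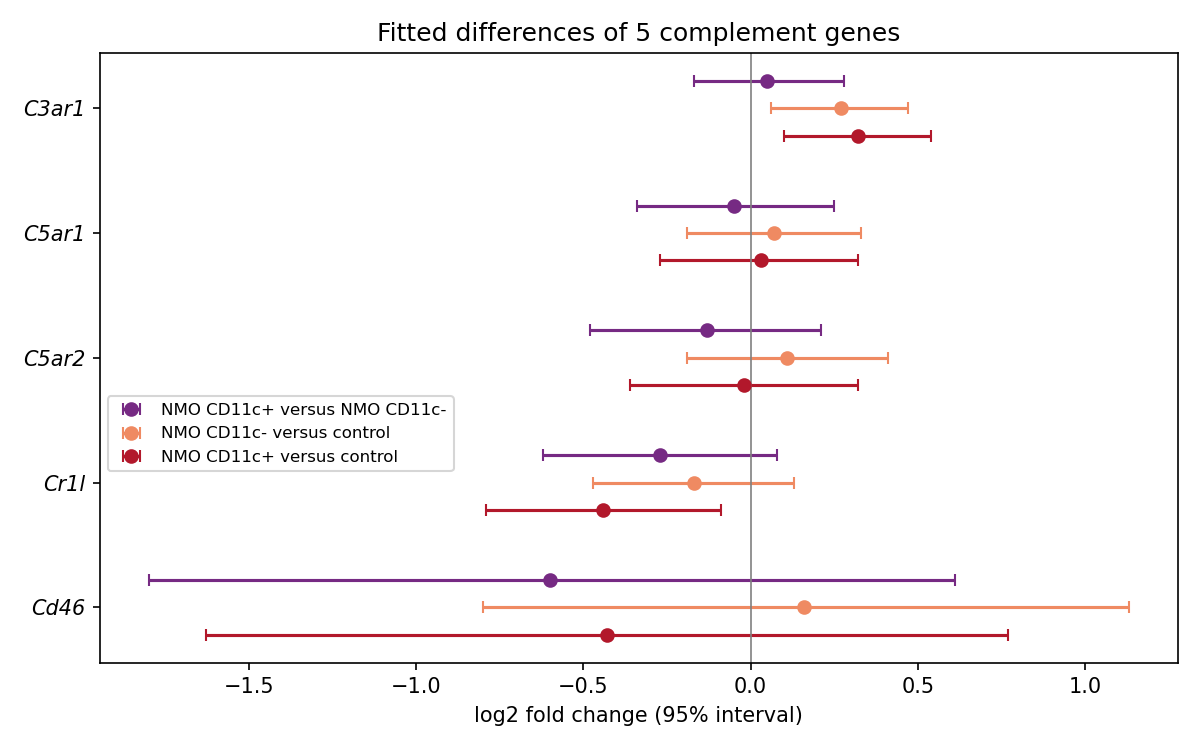
Fitted log2 fold change (horizontal axis) with its 95% interval for the 5 genes with more than 3 counts in every group and enough counts to be tested, for NMO CD11c+ over NMO CD11c- (upper point), NMO CD11c- over control (middle) and NMO CD11c+ over control (lower). The intervals of C3ar1 over control lie above 0 and that of Cr1l in NMO CD11c+ over control lies below 0, none with an adjusted p under 0.05, and those of Cd46 span more than 1 log2 unit.

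Cd55 (ENSMUSG00000026399, chr1:130439027-130462744, minus strand) encodes decay-accelerating factor, which takes apart C3 and C5 convertases. It had 0 and 2 counts in NMO CD11c+ libraries, 8, 18 and 6 in NMO CD11c- libraries and 3, 13 and 16 in control libraries, which comes to 0 and 0.352 CPM in NMO CD11c+, 1.20, 2.71 and 0.882 CPM in NMO CD11c- and 0.367, 1.39 and 2.09 CPM in control libraries. The NMO CD11c+ values were below those of both other groups, the nearest being control replicate 1 at 0.367 CPM; 14.2% of tested genes separate this way from NMO CD11c- and 21.5% from control. From the summed counts, the level in NMO CD11c+ cells was 0.119 times that in NMO CD11c- cells (2 against 32 counts, 95% counting interval 0.0138 to 0.466) and 0.149 times that in control cells (2 against 32 counts, 0.0173 to 0.583). The intervals cover counting error only, and with the spread between libraries in the model neither difference passed the test (adjusted p = 0.272 and 0.163). Cd55 entered that test through the NMO CD11c- and control libraries only. NMO CD11c- cells had 1.25 times the control level (0.741 to 2.11, adjusted p = 0.84).

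Both Cd55 differences were called when no filter on low counts was applied (adjusted p = 0.0384 over NMO CD11c- and 0.0398 over control), and in no other alternative that gave a value. Of 15 neutrophil markers 14 were tested, Csf3r among them; 11 of the 14 fell in NMO CD11c+ cells against NMO CD11c- and 11 of 14 against control cells, where 0.183% and 3.36% of all tested genes fell, and Csf3r was not called in either by edgeR's test (log2 fold change 0.16 and 0.38). Some of the 14 passed the low-count filter through the other groups only. Ly6g, Mmp8 and Retnlg had 0, 1 and 2 counts in NMO CD11c+ libraries, while S100a9 had 44. For genes near 0 there, these comparisons could show only a fall. The 11 of 14 therefore cannot be set directly against the shares of all tested genes. With Csf3r in the sum, NMO CD11c+ libraries were still lowest, at the values given above. S100a9, the most abundant of the list in NMO CD11c- cells, had 3.27 and 4.93 CPM in NMO CD11c+, 899.0, 3167.1 and 583.0 CPM in NMO CD11c- and 238.0, 307.0 and 456.0 CPM in control libraries. The sum without Csf3r was lowest in NMO CD11c+ libraries and highest in NMO CD11c- replicate 2, as was Cd55. Between these ends, NMO CD11c- replicates 1 and 3 had 8 and 6 Cd55 counts at marker sums of 3292.9 and 2231.0 CPM. Control replicates 2 and 3 had 13 and 16 Cd55 counts at sums of 1173.4 and 1914.4 CPM. Counts this low cannot show whether Cd55 followed the sum there. Ly6g, Elane and Stfa2l1 were at 0 in both NMO CD11c+ libraries. The part of such cells in the Cd55 counts was not tested. An antisense gene, Gm16083, overlaps Cd55, and since the strand setting of the counting is not given, reads of the pair cannot be told apart.

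**Figure D4:**
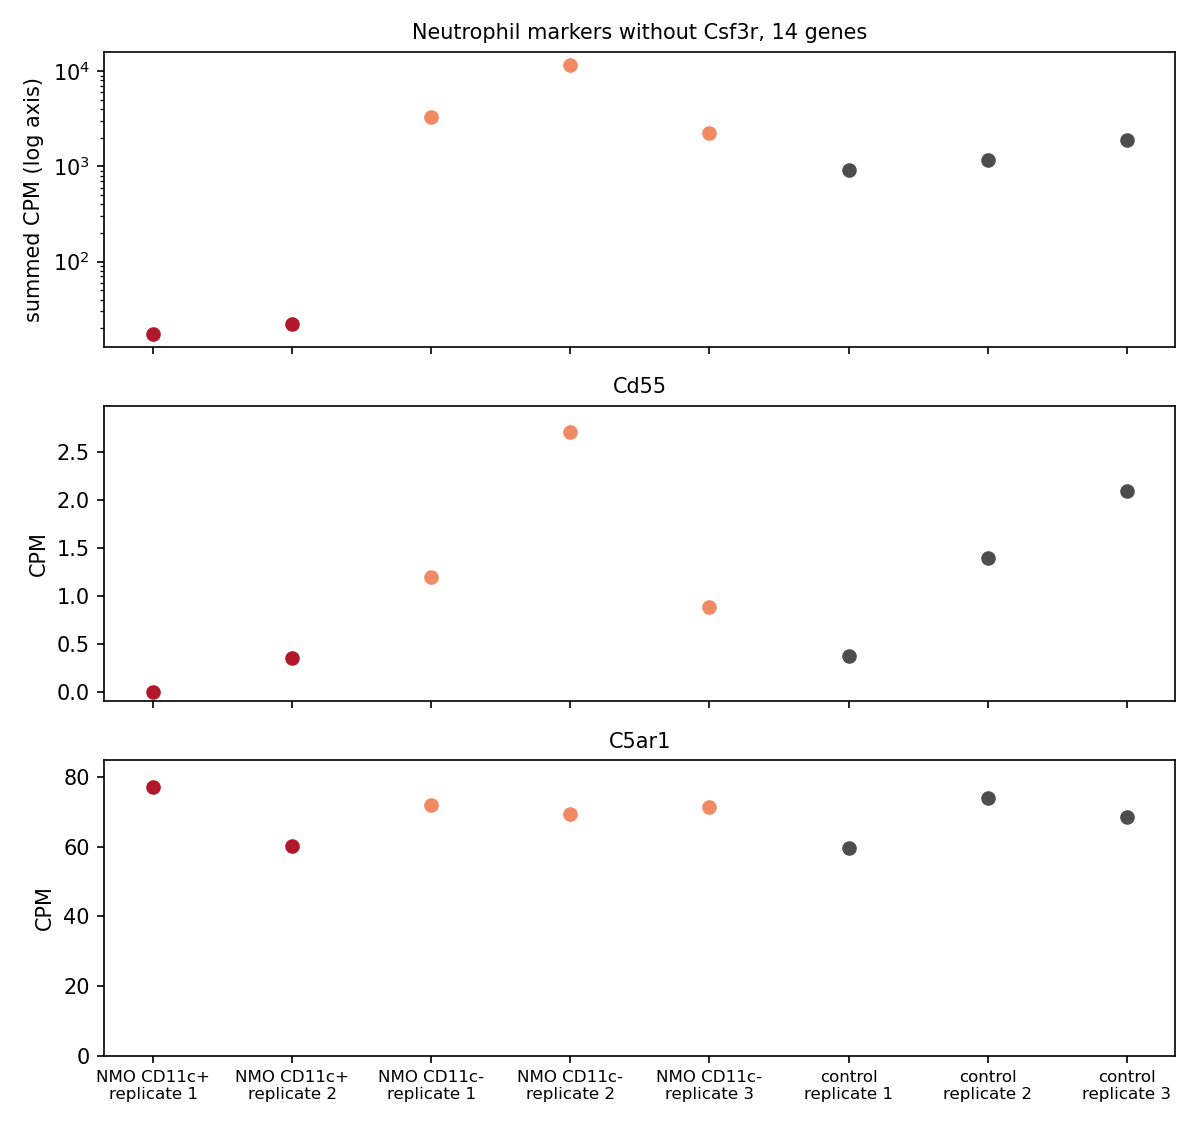
Summed CPM of 14 neutrophil markers (top, log axis), Cd55 CPM (middle) and C5ar1 CPM (bottom) in each of the 8 libraries, 1 point per library, with NMO CD11c+ at the left, NMO CD11c- in the middle and control at the right. The marker sum and Cd55 are both lowest in the 2 NMO CD11c+ libraries and highest in NMO CD11c- replicate 2. Control replicate 1 has 0.367 CPM of Cd55 (3 counts) at a sum of 925.0 CPM. NMO CD11c+ replicate 2 has 0.352 CPM (2 counts) at 22.2 CPM. Counts this low cannot show whether Cd55 follows the sum. C5ar1, a receptor that neutrophils also carry, ranges from 59.7 to 77.2 CPM. It is neither lowest in the NMO CD11c+ libraries nor highest in NMO CD11c- replicate 2. The part of neutrophil RNA in the counts of either gene was not tested.

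Cd46 (ENSMUSG00000016493, chr1:195036826-195092249, minus strand) encodes membrane cofactor protein, which helps inactivate C3b and C4b and in mouse is found mainly in testis. It had 0.817 and 2.64 CPM in NMO CD11c+ libraries, 2.54, 3.76 and 1.76 CPM in NMO CD11c- libraries and 1.71, 2.36 and 3.14 CPM in control libraries. The groups overlapped, and NMO CD11c+ replicate 1, with 4 counts, was the lowest of the 8. Log2 differences were -0.60 (interval -1.80 to 0.61, adjusted p = 0.581) for NMO CD11c+ over NMO CD11c- cells, 0.16 (interval -0.80 to 1.13, adjusted p = 0.878) for NMO CD11c- over control cells and -0.43 (interval -1.63 to 0.77, adjusted p = 0.625) for NMO CD11c+ over control cells. At 4 to 25 counts per library only large changes could have been seen. Noncoding genes annotated within its span, on both strands, add to the uncertainty of these counts.

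Cd46 and Cr1l are neighbours, 5132 bases apart on the minus strand of chromosome 1 with 0 annotated genes between them, yet their levels differed widely. Per kilobase, the level of Cr1l was 8.55 to 22.0 times that of Cd46 in the 7 libraries with at least 10 Cd46 counts. Per-kilobase means for Cr1l were 3.93, 4.75 and 5.34 CPM per kb in NMO CD11c+, NMO CD11c- and control cells, with 52.0% to 64.7% of tested genes above it. For Cd46 they were 0.228, 0.354 and 0.316 CPM per kb and for Cd55 0.0363, 0.329 and 0.265 CPM per kb, with 94.6% to 98.6% and 93.7% to 99.4% of tested genes above them in a library.

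Cd59a (ENSMUSG00000032679, chr2:104095801-104115354, plus strand) encodes the inhibitor of the membrane attack complex, the last regulator before a pore forms. It had 6 and 4 counts in NMO CD11c+ libraries, 5, 2 and 2 in NMO CD11c- libraries and 5, 12 and 9 in control libraries. NMO CD11c+ libraries overlapped with both other groups, and so did NMO CD11c- with control libraries, since replicate 1 of NMO CD11c-, at 0.748 CPM, exceeded control replicate 1 at 0.611 CPM. From summed counts the level in NMO CD11c+ cells was 2.12 times that in NMO CD11c- cells (counting interval 0.773 to 5.88) and 0.915 times control (0.394 to 1.96), and that in NMO CD11c- cells 0.433 times control (0.178 to 0.953). In a fit with no filter, adjusted p was 0.692, 0.982 and 0.457 for these comparisons.

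Mouse carries near copies of a pair of these regulators, and neither contributed: Cd55b and Cd59b had 0 counts in all 8 libraries, which allows a level of up to 0.0537 CPM over the libraries together. Reads shared with a copy may have been dropped or split in the authors' counting, which these counts cannot show. Cd59b lies 4613 bases from Cd59a, and Cd55b 16017 bases from Cd55.

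The other receptors and regulators of complement were described from a list of 19 genes, of which 10 were tested. Among them 1 rose in NMO CD11c+ over NMO CD11c- cells (Itgax, the CD11c chain of complement receptor 4, on which the cells were sorted), 1 rose in NMO CD11c- over control cells (Cd93) and 2 rose in NMO CD11c+ over control cells (Itgax and Itga2b, a platelet integrin chain that is on the list but not known as a complement receptor), and none fell. The shares of all tested genes that rose were 0.100%, 3.0% and 6.85%. DESeq2 called Itgax higher in the first comparison, Cd93 higher and Calr lower in the second, and Itga2b, Itgax and Itgb2 higher in the last, against 2.23%, 5.80% and 13.3% of all tested genes in either direction. The list's median log2 fold change was 0.18, 0.08 and 0.16 in these comparisons, with the medians over all genes as above. Itgam, the CD11b chain of complement receptor 3, averaged 2218.1, 2588.8 and 2348.8 CPM in NMO CD11c+, NMO CD11c- and control cells, and its partner Itgb2, the shared beta chain, 857, 726 and 648 CPM. EdgeR's test called neither in any comparison, the nearest being Itgb2 in NMO CD11c+ over control cells (log2 fold change 0.40, adjusted p = 0.0812), which DESeq2 called. Itgb2 had 970 CPM in NMO CD11c+ replicate 1, whose counts followed GC content, and 743 CPM in replicate 2. It had 706 to 738 CPM in NMO CD11c- and 627 to 682 CPM in control libraries.

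Cd93 encodes a lectin-like surface protein once described as a C1q receptor, carried by endothelial and myeloid cells. It had 3.06 and 4.40 CPM in NMO CD11c+ libraries, 4.64, 11.1 and 6.32 CPM in NMO CD11c- libraries and 0.978, 2.36 and 2.22 CPM in control libraries. The NMO CD11c- values were all above the control values, as for 17.6% of tested genes (log2 fold change 1.97, SE 0.410, adjusted p = 0.0275), and the highest was replicate 2, the library with the most neutrophil and monocyte marker RNA. The 12 monocyte markers, Ly6c1 among them at 0 in NMO CD11c+ and control libraries, summed to 58.1 to 65.6 CPM in NMO CD11c+, 240.0 to 1140.8 CPM in NMO CD11c- and 94.0 to 179 CPM in control libraries. Leaving out Chil3, the most abundant, the sums were 57.4 to 65.0, 126 to 275 and 36.8 to 57.8 CPM, so NMO CD11c+ libraries were below control libraries only with Chil3. Both NMO CD11c+ values of Cd93 were also above all control values, as for 22.2% of tested genes (log2 fold change 1.01, adjusted p = 0.207 by edgeR's test). Those libraries had the lowest neutrophil marker sums. The part of neutrophils and monocytes in the Cd93 difference was not tested. The Cd93 call was lost without NMO CD11c- replicate 2 (adjusted p = 0.087) and without control replicate 1 (0.119), 2 (0.0831) or 3 (0.0905), while the log2 fold change lay between 1.55 and 2.22 over the 16 alternatives, lowest without NMO CD11c- replicate 2. Itga2b had 4.29 and 3.17 CPM in NMO CD11c+ libraries against 1.10, 1.50 and 1.05 CPM in control libraries, an order shared by 22.2% of tested genes (log2 fold change 1.59, SE 0.404, adjusted p = 0.0349; 1.35 to 1.79 over 15 alternatives). Its call was lost without NMO CD11c+ replicate 1 (0.15), NMO CD11c- replicate 3 (0.0575) or control replicate 1 (0.104), 2 (0.0744) or 3 (0.112), and in a fit of the compared groups alone (0.0538).

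Of 30 complement components, the proteins upstream of these receptors, 13 were tested. None was called for NMO CD11c+ over NMO CD11c- cells by edgeR's test, where 0.283% of all tested genes were. In that comparison 3 had an unadjusted p under 0.05, against 15.4% of all tested genes, and DESeq2 called 1 (Fcnb, lower), against 2.23%. Fcnb had 1 count in NMO CD11c+, 658 in NMO CD11c- and 114 in control libraries, so it passed the filter through the other groups only. It ranged from 5.0 to 80.2 CPM within NMO CD11c-. By edgeR's test 1 component rose over control in each NMO group, where 3.0% of all tested genes rose in NMO CD11c- and 6.85% in NMO CD11c+ cells. DESeq2 called C3 and C4b higher in NMO CD11c- over control cells, against 5.80% of all tested genes. In NMO CD11c+ over control cells it called C1qa, C1qc and C4b higher and Fcnb lower, against 13.3%. C1qa had 5623.7 and 3521.7 CPM in NMO CD11c+ replicates 1 and 2, and 2960.0 to 3309.8 CPM in control libraries. C1qc had 4589.2 and 3121.4 CPM there, and 2686.9 to 2927.9 CPM in control libraries. Counts of NMO CD11c+ replicate 1 followed GC content, which is 59.5% and 57.5% in the longest transcripts of C1qa and C1qc. C1qb, at 57.4%, had 3480.8 and 3346.6 CPM in NMO CD11c+ replicates 1 and 2, and 2598.1 to 3100.7 CPM in control libraries. DESeq2 did not call C1qb. The part of GC content in the C1qa and C1qc calls was not tested. At an unadjusted p under 0.05 there were 3 components for NMO CD11c- and 5 for NMO CD11c+ over control cells, against 18.8% and 28.8% of all tested genes. The gene that edgeR's test called was C4b both times, the classical-pathway component whose fragments are removed by Crry and Cd46. C4b had 120 and 119 CPM in NMO CD11c+ libraries, 103, 126 and 126 CPM in NMO CD11c- libraries and 12.6, 19.6 and 15.4 CPM in control libraries, with every NMO library above every control library, an order that 11.5% of all tested genes share. Over control it differed by a log2 value of 2.91 (SE 0.167, adjusted p = 1.51e-05) in NMO CD11c+ cells and 2.89 (SE 0.157, adjusted p = 2.59e-05) in NMO CD11c- cells, and it was called in each of the 16 alternatives both times, counting the summing of Cd55 and Cd59a copies, which could not change it. Its near copy C4a averaged 1.60, 1.74 and 1.21 CPM in NMO CD11c+, NMO CD11c- and control cells, and reads shared by the copies may have been split or dropped. The list's median was -0.07, 0.39 and 0.39 for NMO CD11c+ over NMO CD11c-, NMO CD11c- over control and NMO CD11c+ over control cells.

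C3, the source of the C3a that C3ar1 senses, had 44.5 and 33.6 CPM in NMO CD11c+ libraries, 67.5, 268 and 45.3 CPM in NMO CD11c- libraries and 20.1, 26.5 and 37.5 CPM in control libraries. NMO CD11c- replicate 2, highest also in neutrophil and monocyte markers, was far above the rest, and all NMO CD11c- values were above all control values, as for 17.6% of tested genes (log2 fold change 2.18, SE 0.572, adjusted p = 0.0694). Without that replicate the log2 fold change was 1.01 (adjusted p = 0.109). Over 16 alternatives it lay between 1.01 and 2.58, and 7 gave a call, DESeq2 among them (adjusted p = 0.0467; 9.8e-17 to 0.255 over the 16, the lowest with no filter on low counts). The differences for NMO CD11c+ cells had adjusted p = 0.275 over NMO CD11c- and 0.66 over control cells. Hc, which encodes C5, had 0 and 0 counts in NMO CD11c+ libraries, 1, 3 and 0 in NMO CD11c- libraries and 0 in all 3 control libraries. C5a receptor RNA was thus counted in every library, and C5 RNA in only 2 of 8.

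The 19 genes of signalling downstream of the anaphylatoxin receptors (G protein subunits, arrestins, receptor kinases, phospholipases, a phosphoinositide 3-kinase and its adaptor, and regulators of G protein signalling) were all tested, and edgeR's test called none in any comparison. At an unadjusted p under 0.05 there were 0 for NMO CD11c+ over NMO CD11c-, 3 for NMO CD11c- over control and 7 for NMO CD11c+ over control cells, against 15.4%, 18.8% and 28.8% of all tested genes. DESeq2 called 0, 1 (higher) and then 4 higher and 2 lower, against 2.23%, 5.80% and 13.3% of all tested genes. The list's median log2 fold change was 0.14, -0.04 and -0.01. By edgeR's test the lowest adjusted p was 0.0534, for Grk3 in NMO CD11c+ over control cells (log2 fold change 0.41), which DESeq2 called. Grk3, a kinase that desensitises G protein-coupled receptors, averaged 130.0, 115 and 97.9 CPM in NMO CD11c+, NMO CD11c- and control cells.

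**Figure D5:**
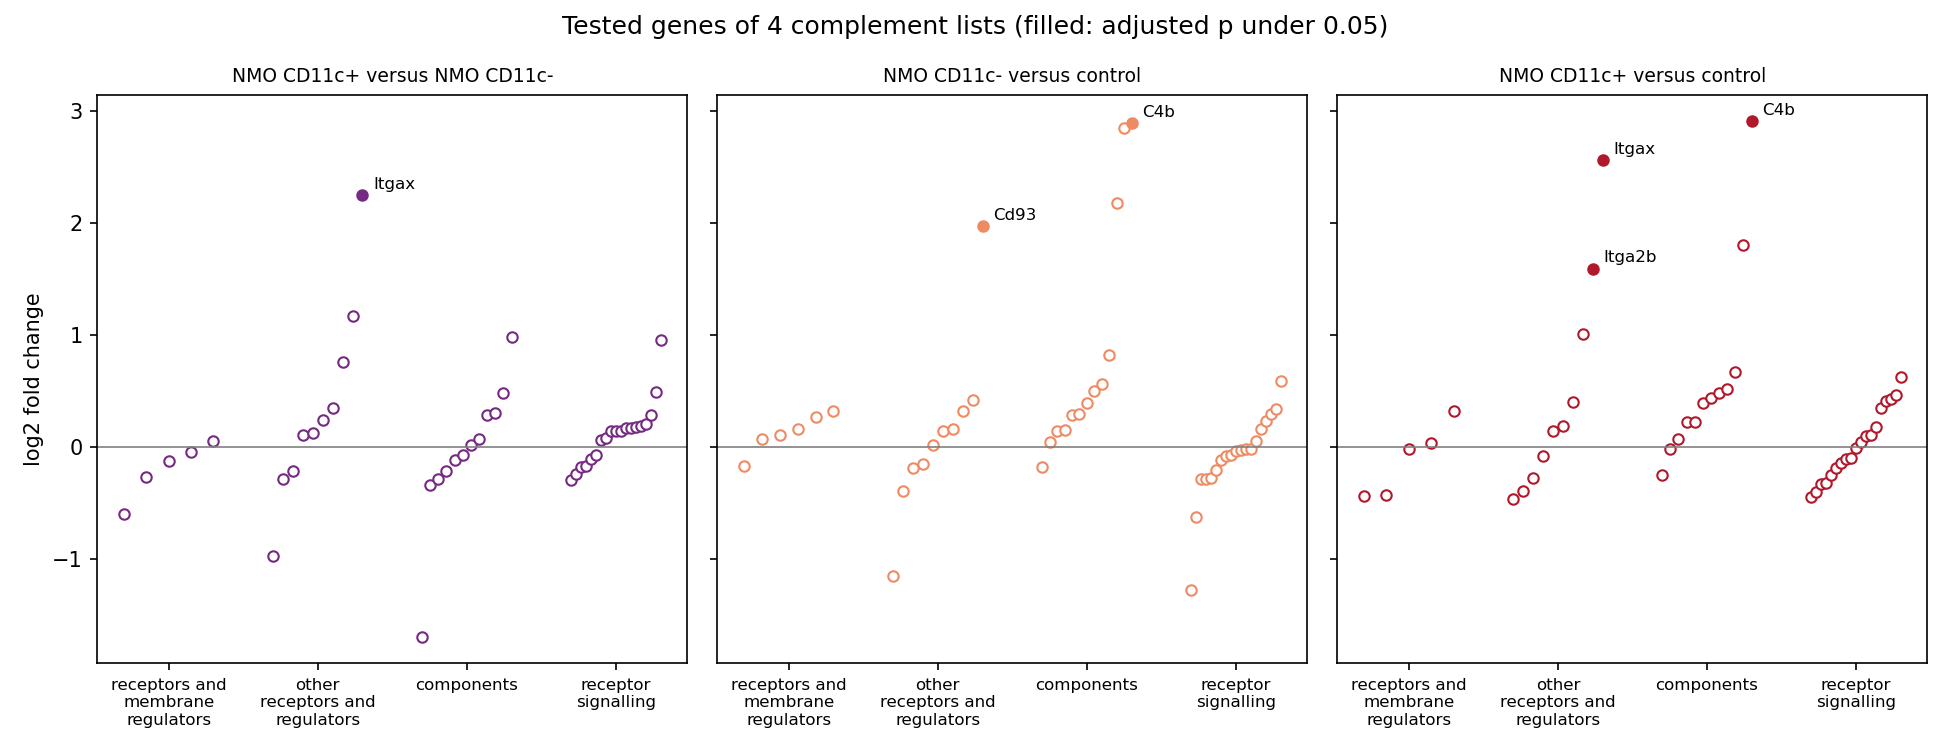
Fitted log2 fold change (vertical axis) of the tested genes of 4 complement lists, sorted within each list, for NMO CD11c+ over NMO CD11c-, NMO CD11c- over control and NMO CD11c+ over control (left to right); filled points had an adjusted p under 0.05, and genes with 3 counts or fewer in either group (Cd55 and the ficolin Fcnb, both in NMO CD11c+) are not drawn. C4b stands at 2.89 and 2.91 over control, while the points of the receptors and membrane regulators are all open.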

How the data were processed

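The authors deposited whole-number read counts per gene, a file for each library with 41388 identifiers. Per the submitters' processing notes, STAR 2.3.11, HTSeq 0.5.4, edgeR 3.12.0 and GRCm38 were used; libraries were made with a TruSeq kit per the labels' protocols. Strand setting and annotation release: not given in the sources used here. Symbols, coordinates and exon lengths were taken from GENCODE M21, in which 40254 identifiers had a symbol and 1134 had none (0.155% of counts).

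The 12002 genes that passed filterByExpr (minimum count 10, by group) were scaled by TMM and fitted together, all 8 libraries at once, with the quasi-likelihood model of edgeR 4.0.16 (R 4.3.3; glmQLFit, glmQLFTest; residual df 5, prior df 5.08, common dispersion 0.0223), after the code was tested on simulated data. Calls required an adjusted p below 0.05 by the Benjamini-Hochberg method over those genes. CPM use TMM-scaled library sizes; errors are SD over libraries, or SE and 95% intervals of fitted log2 differences. For a group with 3 counts or fewer, or an untested gene, ratios of summed counts with exact binomial 95% intervals replace fitted folds. Such intervals, and floors of 3 counts, cover counting error only. Replicates differed by more than sampling noise in chi-square tests, so none was counted as a repeat deposit.

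Alternatives were other scaling, no filter or a minimum count of 30, DESeq2 1.42.0, fits of the compared groups alone, a GC and length correction, near copies summed (the copies had 0 counts), and each library left out. The 8 members and the lists were chosen with earlier results of these data known. Named are all members, near copies, Itgax, each gene of the other complement lists that edgeR's test called, and leading marker genes. Signalling genes that DESeq2 alone called are given as counts, apart from Grk3. For called members, the genes closest in pattern would also have been named, but edgeR's test called no member. C3, Hc, C4a, C1qa, C1qb, C1qc, Itgam, Itgb2, Calr, Grk3, Fcnb, Csf3r, S100a9, Mmp8 and Retnlg were named after their values were seen. The alternatives for Itgax, Cd93, Itga2b, C4b and C3 were also added after their values were seen. A result for 1 gene of the lists is not reported here.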

Additional observations from a re-analysis of the deposited data

How the results depend on the processing

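No paired analysis was possible because nothing in the labels links a library of one group to one of another, and the replicate numbers were given in order of accession. Counts are given for NMO CD11c+ over NMO CD11c-, NMO CD11c- over control and NMO CD11c+ over control, in that order. Against 34, 446 and 1225 genes as reported, no filter on low counts gave 707, 1157 and 2115, DESeq2 268, 696 and 1599, fits of the compared groups alone 5, 1221 and 627, and the GC and length correction 70 and 935 in the first pair. Leaving out 1 library at a time gave 4 to 3016, 141 to 1193 and 487 to 4077 genes; the highest counts of the first and last comparison came without NMO CD11c+ replicate 2. Of the members, against 0 in each, no filter gave 1, 0 and 2, DESeq2 0, 1 and 1, fits of the compared groups alone 1 in the middle comparison, the GC and length correction 1 in the last, and leaving out 1 library 0 to 0, 0 to 1 and 0 to 2. With library size in place of TMM, genes called higher and lower were 8 and 24 for NMO CD11c+ over NMO CD11c- cells, against 12 and 22.

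Signs turned in 16 uncalled results; ranges are over libraries left out. For NMO CD11c+ over NMO CD11c- cells these were C3ar1 with library size only (-0.01), Cr1l with the GC and length correction (0.08), and C5ar1 (-0.23 to 0.12) and C5ar2 (-0.29 to 0.01), which turned without NMO CD11c+ replicate 2. For NMO CD11c- over control cells they were C5ar1 (-0.01 to 0.14), C5ar2 (-0.01 to 0.22), Cd46 (-0.15 to 0.39) and Cd55 (-0.12 to 0.60), which turned without control replicate 1, Cd46 (-0.03 there) also without NMO CD11c- replicate 2. For NMO CD11c+ over control cells they were C5ar1 with library size only (-0.01), with no filter (-0.02) and without NMO CD11c+ replicate 1 or control replicate 1 (-0.17 to 0.19), C5ar2 without NMO CD11c+ replicate 2 or control replicate 2 (-0.18 to 0.12), and Cd46 without NMO CD11c+ replicate 1 (-1.53 to 0.14). The causes were not tested. Cd55 gave no value where a stricter filter or a smaller set of libraries left it out. Depth limits Cd46, Cd55, Cd59a and Vsig4, at 25 counts or fewer in every library, and with 2 NMO CD11c+ libraries a fit without 1 of them assumes that the other varies like the rest.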
